A study of Mus musculus with 14 samples.

Results

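The genes described here are the inositol 1,4,5-trisphosphate (IP3) receptors and the enzymes around them. They are the receptor genes Itpr1, Itpr2 and Itpr3, the receptor inhibitor Car8, the IP3 3-kinases Itpka, Itpkb and Itpkc, the phosphatases Inpp5a and Inpp1, and the store calcium sensor Stim1. They were chosen by name, and all 10 were found among the 24100 genes of the count table. RNA was sequenced from cerebella of littermate mice at postnatal day 21, either wild type for Astn2 (WT) or knocked out for it (KO). WT and KO animals alike carried Tg(Pcp2-L10a-EGFP), a bacTRAP transgene in which the Purkinje cell gene Pcp2 drives ribosomal protein L10a fused to EGFP. In translating ribosome affinity purification (TRAP), anti-GFP antibodies pull down the tagged ribosomes with the RNA bound to them, and input is a small part of the same kind of cleared lysate kept before the pull-down, labelled whole cerebellum. TRAP gave 3 WT libraries, from 1 female and 2 male samples, and 4 KO libraries, with 2 samples of each sex. Input gave 4 WT libraries, of which 1 was female and 3 were male, and 3 KO libraries, of which 2 were female and 1 was male. The labels do not say whether the libraries of a group came from separate animals, so p-values measure the spread between these libraries.

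IP3 is the messenger that links receptors at the cell surface to calcium held in the endoplasmic reticulum. Gq-coupled receptors activate phospholipase C, which splits a membrane lipid into diacylglycerol and IP3, and IP3 opens its receptor channel so that calcium leaves the store. The signal ends when a 3-kinase adds a phosphate to IP3 or a 5-phosphatase removes one. Cerebellar Purkinje cells are known for very high amounts of the type 1 receptor, and this route carries calcium signals from parallel fibre input in their dendrites.

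Levels are given as CPM, the usual counts-per-depth unit, after composition scaling with TMM factors, and a level per kb is CPM divided by the length of the longest annotated transcript. The total of a library lay between 18.8 and 54.2 M counts (M, 1e6). The deleted gene, Astn2, was at 87.8 to 104 CPM in input WT and 116 to 145 CPM in TRAP WT, against 0.739 to 0.970 CPM in input KO and 1.06 to 2.10 CPM in TRAP KO. All 10 of a list of Purkinje cell markers were higher in TRAP than in input in both genotypes. Their summed level was 2809 to 2912 CPM in input WT and 2989 to 3504 CPM in input KO. In TRAP it was 43382 to 49124 CPM in WT and 39181 to 45307 CPM in KO. Markers of other cell types were lower in TRAP but not gone. The 8 astroglia markers summed to 1301 to 1781 CPM in input WT and 329 to 467 CPM in TRAP WT, and to 1501 to 1675 CPM in input KO and 313 to 608 CPM in TRAP KO. The 8 granule cell markers summed to 4690 to 4996 CPM over the input libraries and 684 to 1297 CPM over the TRAP libraries. None of the 66 marker genes was at 0 in any group. In such bulk samples, fewer cells of a type and less RNA per cell cannot be told apart.

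Of the 3 receptor genes Itpr1 was higher in TRAP than in input, and Itpr2 and Itpr3 were lower. Itpr1 (chromosome 6, 108213083 to 108551116, plus strand, build GRCm38.p6) encodes the type 1 IP3 receptor, the main channel for calcium release in Purkinje cells. Its level was 614, 739, 889 and 1137 CPM in the input WT libraries and 1024, 812 and 907 CPM in input KO. In TRAP it was 2513, 2853 and 6830 CPM in WT and 3378, 2979, 3011 and 4044 CPM in KO. Every TRAP library lay above every input library, and the third TRAP WT library stood far above the other TRAP libraries. The log2 fold change of TRAP against input was 2.28 ± 0.27 (SE) in WT, with an adjusted p of 3.71e-06 by edgeR's quasi-likelihood test with Benjamini-Hochberg adjustment, and 1.82 ± 0.29 in KO, with an adjusted p of 5.55e-05. Without the third TRAP WT library the value in WT was 1.71. Itpr1 shares 108 exon bases with Gm44040 and 181 with Gm44101, both on the opposite strand and neither among the genes counted.

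Itpr2 (chromosome 6, 146108299 to 146502258, minus strand) encodes the type 2 receptor, a form known from astrocytes and heart. It was at 8.25 to 9.39 CPM in input WT, 8.19 to 11.2 CPM in input KO, 2.52 to 3.19 CPM in TRAP WT and 1.99 to 2.88 CPM in TRAP KO. The type 3 receptor gene Itpr3 (chromosome 17, 27057002 to 27122223, plus strand), known from secretory epithelia, was at 7.54 to 9.46 CPM in input WT, 3.89 to 8.27 CPM in input KO, 1.12 to 2.52 CPM in TRAP WT and 0.704 to 2.42 CPM in TRAP KO. For both genes every TRAP library lay below every input library of its genotype. The log2 fold change of TRAP against input was -1.64 ± 0.17 in WT and -2.04 ± 0.16 in KO for Itpr2. For Itpr3 it was -2.50 ± 0.30 in WT and -1.72 ± 0.28 in KO. The lower levels went with the lower astroglia and granule cell sums given above, and the part of those cells in the result was not tested. Itpr3 rested on 16 to 62 counts per TRAP library, and it shares 233 exon bases with the antisense gene Itpr3os, which makes its level uncertain. Per kb, Itpr1 made up 97.9% ± 0.591 (SD, n = 4) of the receptor RNA in input WT and 98.4% ± 0.139 (SD, n = 3) in input KO. In TRAP its share was 99.9% in both genotypes, with a lowest library of 99.8%.

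The receptors are the longest transcripts of the 10 genes, and their values moved with a correction for transcript length. With offsets that remove each library's trend on length, an alternative chosen after seeing the data, the TRAP against input value in WT was 3.27 for Itpr1, -0.49 for Itpr2 and -1.57 for Itpr3. In KO it was 2.85, -0.88 and -0.77 in the same order. All 6 values were still past the threshold, an adjusted p of 0.05.

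Car8 was the highest of the 10 genes in every group, both in CPM and per kb. It lies on chromosome 4, 8141493 to 8239041, minus strand, and encodes a carbonic anhydrase-related protein without enzyme activity that binds the type 1 receptor and lowers its affinity for IP3. In input it was at 1937, 1800, 1899 and 1961 CPM in WT and 1871, 2062 and 2274 CPM in KO. In TRAP it was at 23130, 20941 and 24473 CPM in WT and 21145, 21978, 19862 and 25100 CPM in KO. The libraries of a group lay close together, and every TRAP library stood far above every input library. TRAP exceeded input by 3.60 ± 0.11 on the log2 scale in WT, which is 12.1-fold, and 3.42 ± 0.12 in KO, which is 10.7-fold. Both passed the threshold, with adjusted p of 4.22e-11 and 1.76e-10 by edgeR's test.

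The 3 kinases that turn IP3 into inositol 1,3,4,5-tetrakisphosphate divided as the receptors did. Itpka (chromosome 2, 119742337 to 119751253, plus strand) encodes the actin-binding neuronal kinase of dendritic spines. It rose from 76.6, 81.1, 87.5 and 82.4 CPM in input WT to 1311, 1233 and 1567 CPM in TRAP WT. In KO it rose from 75.1, 80.0 and 97.1 CPM to 1168, 1285, 1254 and 1554 CPM. Its log2 fold change of 4.09 ± 0.12 in WT, 17.0-fold, was the largest of the 10 genes and ranked 54 from the top of the 16042 genes tested. In KO it was 3.96 ± 0.13, with a rank of 56.

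Itpkb, on chromosome 1 at 180330390 to 180424802, plus strand, encodes a kinase known for its part in lymphocytes and present in astroglia. It fell from 32.3, 31.9, 36.5 and 38.0 CPM in input WT to 8.91, 4.14 and 9.69 CPM in TRAP WT. In KO it fell from 37.7, 35.8 and 36.8 CPM to 8.81, 11.8, 11.6 and 7.96 CPM. The second TRAP WT library was the lowest of all. On the log2 scale the change was -2.19 ± 0.24 in WT and -1.85 ± 0.22 in KO. Itpkb shares 66 exon bases with Gm5069 on the opposite strand. Gm5069 had a mean of 5.16 CPM in input WT and 1.50 CPM in TRAP WT. Itpkc (chromosome 7, 27207170 to 27228617, minus strand), the broadly expressed last kinase, fell less. It was at 17.8 to 20.0 CPM in input WT, 18.0 to 19.1 CPM in input KO, 9.86 to 10.6 CPM in TRAP WT and 9.50 to 13.9 CPM in TRAP KO. Its log2 fold change was -0.89 ± 0.13 in WT and -0.57 ± 0.12 in KO. Itpkc shares 1273 exon bases with BC024978 on the opposite strand, and whether counting used strand is not given in the sources used here. BC024978 was at 11.0 ± 0.363 CPM (SD, n = 4) in input WT and 22.9 ± 3.15 CPM (SD, n = 3) in TRAP WT, so the level of Itpkc in TRAP is uncertain. Per kb, Itpka held 79.8% ± 0.815 (SD, n = 4) of the kinase RNA in input WT and 99.4% ± 0.0388 (SD, n = 3) in TRAP WT. In KO the share was 79.8% ± 2.12 (SD, n = 3) in input and 99.2% ± 0.179 (SD, n = 4) in TRAP.

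The phosphatase that removes the 5-phosphate of IP3 was among the most enriched transcripts. Inpp5a (chromosome 7, 139389074 to 139579652, plus strand), the type I 5-phosphatase, was at 541, 546, 579 and 581 CPM in input WT and 524, 551 and 650 CPM in input KO. It reached 7226, 7416 and 9210 CPM in TRAP WT and 6837, 7023, 6485 and 7788 CPM in TRAP KO. No TRAP library came near an input library. This was a log2 fold change of 3.84 ± 0.11 in WT, 14.3-fold and ranked 89 of 16042, and 3.61 ± 0.12 in KO. Inpp5a shares 246 exon bases with Nkx6-2 on the opposite strand, and Nkx6-2 was at most 23.6 CPM in any library. Inpp1, on chromosome 1 at 52785425 to 52817688, minus strand, encodes a 1-phosphatase that works further down, on inositol bisphosphates, and is inhibited by lithium. It was at 34.0 to 35.9 CPM in input WT, 35.2 to 37.1 CPM in input KO, 58.0 to 74.1 CPM in TRAP WT and 66.4 to 80.2 CPM in TRAP KO. Its log2 fold change was 0.95 ± 0.10 in WT and 0.99 ± 0.11 in KO. Scaled to library totals, without a composition factor, it was 0.13 in WT with an adjusted p of 0.286, and 0.26 in KO with an adjusted p of 0.0417.

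The start regions of the most enriched enzyme genes and of the depleted kinases are shown because these pairs moved apart between TRAP and input. The RefSeq promoter table used here (GRCm38.p6) matched 8 of the 10 genes, all but Itpr1 and Car8, and lists 2 starts for Inpp5a, of which the one at the start of the gene is printed. The bases before the annotated start follow, 5′ to 3′ on the gene's strand, with each CG pair in capitals.
Itpka, chr2:119742087-119742336, plus strand: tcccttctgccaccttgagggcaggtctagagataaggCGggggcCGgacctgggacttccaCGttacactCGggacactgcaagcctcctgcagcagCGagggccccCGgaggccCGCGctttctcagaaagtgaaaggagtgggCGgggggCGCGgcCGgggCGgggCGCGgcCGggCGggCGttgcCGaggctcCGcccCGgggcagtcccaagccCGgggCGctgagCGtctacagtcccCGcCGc
Inpp5a, chr7:139388859-139389073, plus strand: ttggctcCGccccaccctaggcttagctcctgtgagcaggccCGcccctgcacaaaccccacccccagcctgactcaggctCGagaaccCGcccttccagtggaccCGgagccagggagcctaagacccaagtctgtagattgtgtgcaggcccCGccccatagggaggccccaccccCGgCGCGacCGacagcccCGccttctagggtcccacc
Itpkb, chr1:180330226-180330389, plus strand: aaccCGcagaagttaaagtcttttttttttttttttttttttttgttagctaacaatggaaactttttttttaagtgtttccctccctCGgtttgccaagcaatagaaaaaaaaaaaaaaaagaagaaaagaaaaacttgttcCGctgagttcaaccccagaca
Itpkc, chr7:27228618-27228867, minus strand: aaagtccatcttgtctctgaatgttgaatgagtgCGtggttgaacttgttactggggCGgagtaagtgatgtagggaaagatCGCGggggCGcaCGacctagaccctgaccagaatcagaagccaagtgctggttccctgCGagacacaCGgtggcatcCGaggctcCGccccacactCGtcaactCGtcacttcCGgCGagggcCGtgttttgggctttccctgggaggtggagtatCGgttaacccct
The run of Itpka holds 26 CG pairs in 250 bases and that of Inpp5a 11 in 215 bases. The run of Itpkb holds 3 in 164 bases, with long stretches of T and A, and that of Itpkc 16 in 250 bases. Over the full 250-base windows of the table, G and C made up 72.8% for Itpka, 69.2% for the printed start of Inpp5a and 49.6% for its other start, 38.4% for Itpkb and 56.8% for Itpkc, against a median of 52.4% over all 32851 promoters. Among the other genes matched, the depleted Itpr2 had 74.4% and Itpr3 72.0%, and the enriched Stim1 had 78.4% and Inpp1 65.6%. The windows of Itpr3 and Stim1 lie inside the annotated gene. Whether this content goes with TRAP enrichment was not tested. The hexamer AGGTCA, the core bound by ROR and other nuclear receptors, was searched on both strands. Of the 8 genes Inpp1 alone held it, with 2 matches, and 14.02% of all 32851 promoters held it. A match is only a match of letters.

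Stim1 (chromosome 7, 102261514 to 102437319, plus strand) encodes the sensor that detects an emptied store and opens channels in the plasma membrane. In input it was at 54.9, 58.4, 62.0 and 70.8 CPM in WT and 51.6, 58.5 and 50.5 CPM in KO. In TRAP it was at 109, 93.1 and 283 CPM in WT and 96.6, 110, 114 and 127 CPM in KO. All TRAP libraries were above all input libraries, and the third TRAP WT library was again the highest. The log2 fold change was 1.41 ± 0.27 in WT, with an adjusted p of 0.000345 by edgeR's test, and 0.71 without that library. In KO it was 1.02 ± 0.28, with an adjusted p of 0.00493. Scaled to library totals it was 0.58 in WT and 0.29 in KO, with adjusted p of 0.0641 and 0.356.

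**Figure D1:**
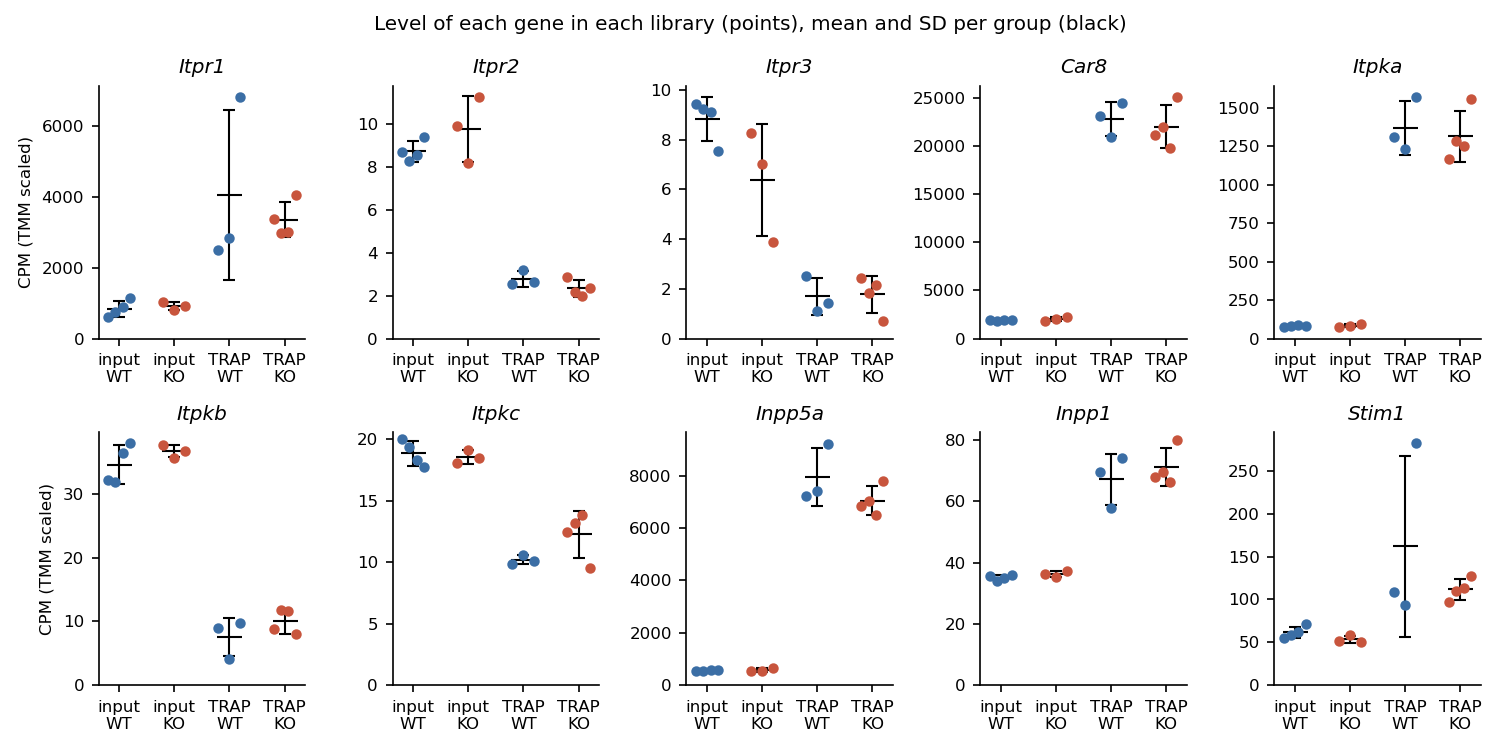
Level of the 10 genes in CPM on linear axes, 1 panel per gene and 1 point per library (blue WT, red KO), with the mean and SD of each group in black. Itpr1, Car8, Itpka, Inpp5a, Inpp1 and Stim1 are higher in TRAP, Itpr2, Itpr3, Itpkb and Itpkc are lower, and 1 TRAP WT library stands apart for Itpr1 (6830 CPM) and Stim1 (283 CPM).

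Of the 10 genes, 6 were called higher and 4 lower in TRAP than in input, and they were the same 6 and 4 in WT and KO. Over all 16042 genes tested, 37.0% were called higher and 38.5% lower in WT, and 36.3% higher and 39.6% lower in KO, so most genes were called in each comparison. The median log2 fold change of the 10 genes was 1.18 in WT and 1.01 in KO, against -0.09 and -0.11 over all genes tested. WT and KO were compared each with its own input, but in the same fit of all 14 libraries. The 2 comparisons share the spread and the sex term of that fit, so they are not independent. Scaling to library totals moved the median of all genes to -0.91 in WT and -0.85 in KO. It left 3135 higher among 12936 called genes in WT, against 5937 among 12118, and 3132 among 12802 in KO, against 5817 among 12176. With that scaling 8 of the 10 genes were called in WT and 9 in KO.

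**Figure D2:**
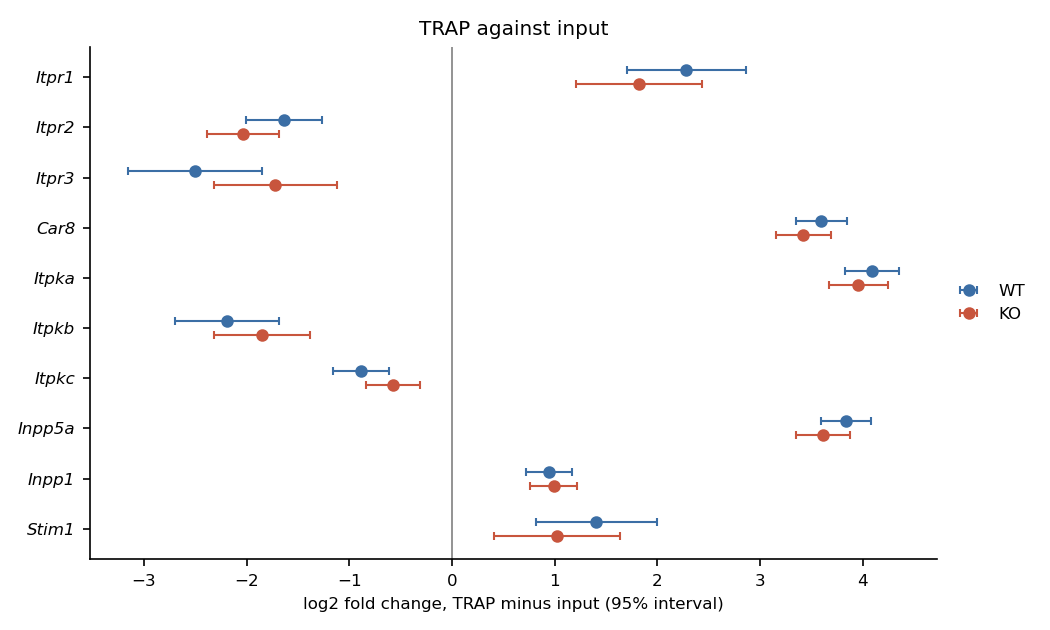
Log2 fold change of TRAP minus input for each gene in WT (blue) and KO (red), with bars for the 95% interval. Itpka, Inpp5a and Car8 lie between 3.42 and 4.09, and Itpr3, Itpkb, Itpr2 and Itpkc lie below 0 in both genotypes.

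Per kb, which allows genes to be set against each other, Car8 was at 5930 ± 463 CPM per kb in TRAP WT (SD, n = 3), Inpp5a at 2813 ± 387, Itpka at 754 ± 96.1 and Itpr1 at 412 ± 243. The ranges of Itpka and Itpr1 overlapped in TRAP WT, and in TRAP KO they did not, with 723 ± 91.7 and 340 ± 50.2 CPM per kb (SD, n = 4). Stim1 followed at 37.1 ± 24.2 CPM per kb in TRAP WT, then Inpp1 at 11.7 ± 1.44, Itpkc at 3.14 ± 0.112 and Itpkb at 1.22 ± 0.482. Itpr2 and Itpr3 were last, at 0.238 ± 0.0307 and 0.188 ± 0.0814 CPM per kb, and overlapped. In input WT the order began with Car8 at 493 ± 18.4, Inpp5a at 199 ± 7.60, Itpr1 at 85.6 ± 22.8 and Itpka at 45.0 ± 2.45 CPM per kb (SD, n = 4), with no overlap between these neighbours. By these means Itpr1 and Itpka stood in opposite order in input and TRAP. With the length offsets the TRAP against input value of Itpr1 moved to 3.27 in WT and 2.85 in KO. The order per kb was not examined with those offsets. Itpkc and Itpkb overlapped in input in both genotypes, as did Inpp1 and Itpkc in input WT.

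The comparison of KO with WT asks whether the loss of Astn2 moves these genes in Purkinje cell ribosomes or in whole cerebellum. None of the 10 genes passed the threshold in TRAP, in input or in the interaction of genotype with fraction. In TRAP edgeR called 0 of 10, also at an unadjusted p under 0.05, where 0.00707% of 14145 genes were called and 1.50% had such a p. DESeq2's Wald test called 0 of 10 as well, and limma with sample quality weights 0 of 10, with 2 at an unadjusted p under 0.05, where that fit had 1395 of 14145 genes at such a p. KO and WT libraries overlapped for all 10 genes, while they did not overlap for 4.56% of all genes. The median log2 fold change of KO against WT in TRAP was -0.04 for the 10 genes and 0.00 for all genes. Of the 10 Purkinje cell markers 0 were called in TRAP, and Pcp2 alone had an unadjusted p under 0.05 by edgeR. It was at -0.55 ± 0.22, every KO library lay below every WT library, and it was named after its values were seen. Interneuron markers summed to 146 to 240 CPM in TRAP WT and 253 to 272 CPM in TRAP KO. Choroid plexus markers gave 117 to 204 and 88.0 to 108 CPM in these groups. The sums of the other marker lists overlapped. The part of these in the genotype values was not tested.

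The 95% intervals give the range of change that these libraries are compatible with. For Car8 in TRAP the log2 fold change was -0.04, with an interval from -0.40 to 0.31. For Itpka it was -0.03, from -0.41 to 0.35, for Inpp5a -0.15, from -0.52 to 0.21, and for Inpp1 0.09, from -0.27 to 0.45. For Itpr1 it was -0.14, from -0.88 to 0.59, and for Stim1 -0.42, from -1.21 to 0.37. Without the third TRAP WT library these last values were 0.33 and 0.14. Itpkb gave 0.38, from -0.33 to 1.10, and Itpkc 0.26, from -0.18 to 0.70. Itpr2 gave -0.25, from -0.86 to 0.36, and Itpr3 -0.03, from -0.96 to 0.90. The narrow intervals belong to the enriched enzymes and the inhibitor, and the widest belong to the low Itpr3 and to Stim1.

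In input, edgeR again called 0 of 10, where 0.0188% of 15997 genes were called. At an unadjusted p under 0.05 there was 1 gene of the 10, Itpr3, against 13.7% of all genes. DESeq2's Wald test called the same gene, in a fit that called 292 of the 15997 genes. Itpr3 was at 8.27 and 7.02 CPM in the female KO libraries and 3.89 CPM in the male KO library, against 9.46, 9.23, 9.12 and 7.54 CPM in WT. The KO and WT ranges overlapped, as they did for all 10 genes, while 11.4% of all genes did not overlap. The log2 fold change was -0.78 ± 0.20 with an adjusted p of 0.196 by edgeR and -0.77 with an adjusted p of 0.00489 by DESeq2. It was -0.31 without the male KO library, -1.20 without the first WT library, which is the female one, and -0.50 without sex in the model, and edgeR's adjusted p over the alternatives ran up to 0.801. The summed level of 8 endothelial markers was 23.3 and 23.4 CPM in the female KO libraries and 15.9 CPM in the male KO library, against 23.9 to 34.4 CPM in WT, and its part in the value of Itpr3 was not tested. Itpr1 differed by 0.23 ± 0.20, Stim1 by -0.21 ± 0.11, Itpr2 by 0.19 ± 0.11 and Car8 by 0.12 ± 0.07. The other 5 genes lay between -0.09 and 0.09.

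**Figure D3:**
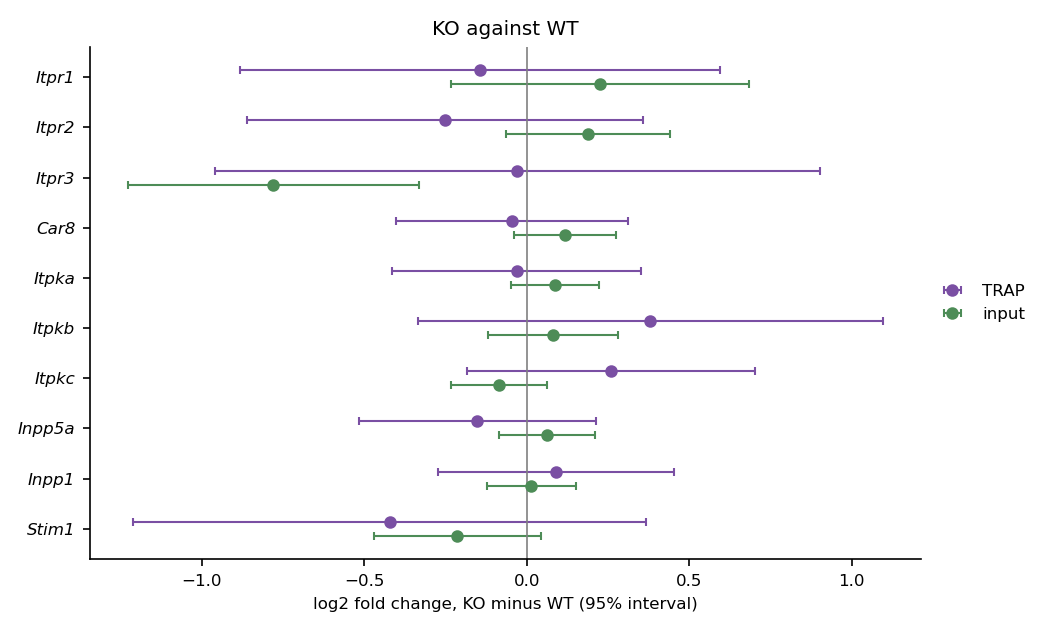
Log2 fold change of KO minus WT for each gene in TRAP (purple) and input (green), with bars for the 95% interval before any adjustment. All TRAP intervals cover 0, and in input the interval of Itpr3, from -1.23 to -0.33, does not.

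The interaction asks whether KO and WT differ in their TRAP against input value. EdgeR called 0 of 10, with 0 at an unadjusted p under 0.05, where 0.00% of all 16042 genes were called and 2.68% had such a p. DESeq2's Wald test called 0 of 10. The values ran from -0.46 ± 0.38 for Itpr1 to 0.78 ± 0.41 for Itpr3. For Car8 the interaction was -0.18 ± 0.15, for Inpp5a -0.22 ± 0.15 and for Itpka -0.13 ± 0.16. Without the third TRAP WT library that of Itpr1 was 0.12 and that of Stim1 changed from -0.38 to 0.33.

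The third TRAP WT library therefore sets several values. Its Itpr1 level was 2.55 times and its Stim1 level 2.80 times the mean of the other TRAP WT libraries, while Car8 was at 1.11, Itpka at 1.23 and Inpp5a at 1.26 times that mean. Across 14854 genes its deviation from its group had a Spearman rho of 0.222 with transcript length, against -0.0637 and -0.260 in the other TRAP WT libraries. Its deviations also had the largest SD of the 14 libraries, 0.595 on the log2 scale, against 0.198 to 0.465. The fourth input WT library, with the highest Itpr1 level of its group, 1.52 times the mean of the others, had a rho of 0.227. The fourth TRAP KO library, with the highest Itpr1 of its group, had 0.181. The longest transcript is 9.87 kb for Itpr1, 4.36 kb for Stim1, 3.85 kb for Car8, 2.83 kb for Inpp5a and 1.82 kb for Itpka. It is 11.68 kb for Itpr2, 8.99 kb for Itpr3, 6.24 kb for Itpkb, 5.77 kb for Inpp1 and 3.25 kb for Itpkc. In the third TRAP WT library Itpr2 was at 0.924 and Itpr3 at 0.793 times the mean of the others. Itpkb was at 1.48, Inpp1 at 1.16 and Itpkc at 0.988 times that mean. With length offsets the genotype values in TRAP were -0.22 for Itpr1 and -0.44 for Stim1. The Purkinje cell marker sum of that library, 46519 CPM, lay between those of the other TRAP WT libraries, 43382 and 49124 CPM. Its sums for other cell types were mostly the lowest of the group. They were 939 CPM against 1722 and 1819 for oligodendrocytes and 146 against 240 and 203 for interneurons. For granule cells the sum was 886 against 1206 and 983, for astroglia 329 against 467 and 420, and for microglia 15.2 against 16.7 and 19.6. Its sum was the highest of the group for endothelium, 10.6 CPM against 10.3 and 10.5, and for choroid plexus, 204 against 117 and 196. The part of transcript length or of cell type makeup in its Itpr1 and Stim1 levels was not tested.

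**Figure D4:**
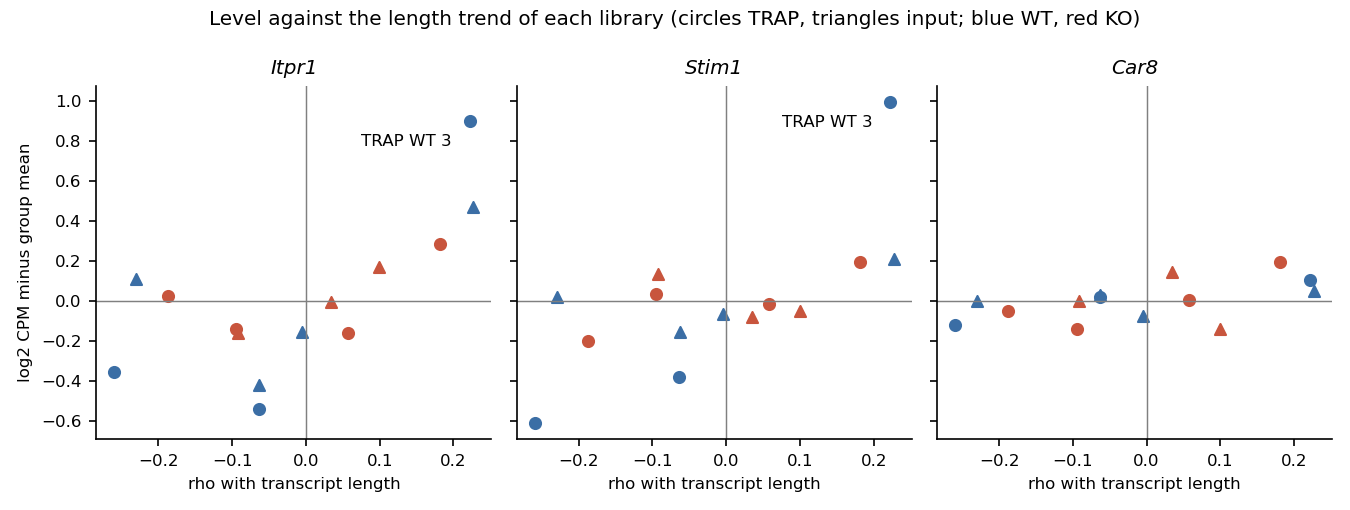
Level of Itpr1, Stim1 and Car8 in each library as log2 CPM minus the mean of its group, against the Spearman rho of that library's deviations with transcript length. The third TRAP WT library (rho 0.222) lies highest for Itpr1 and Stim1 and near the other libraries for Car8.

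Around these genes, 77 others of the route were examined in 6 lists, and none of those tested passed the threshold for genotype in TRAP, in input or in the interaction. In input, unadjusted p was under 0.05 for 5 of 12 phospholipase C genes, 4 of 7 genes of the Gq-coupled input, 3 of 14 tested receptor partners, 3 of 20 phosphatase and inositol supply genes, 0 of 14 calcium store genes and 0 of 8 higher kinases, against 13.7% of all genes. Among the 10 Purkinje cell markers there were 4, with a median of 0.18, and their part in these counts was not tested. The counts of TRAP against input that follow can be read beside the 37.0% higher and 38.5% lower over all genes in WT, and no test compared the lists. Among the 7 genes that feed phospholipase C, 3 were higher and 3 lower in WT. The postsynaptic scaffold Homer3 rose by 3.80 ± 0.15 on the log2 scale. Grm5 fell by 1.83 and Homer2 by 1.63. In KO 4 were higher and 3 lower.

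Of the 12 phospholipase C genes, 2 were higher, 7 lower and 3 not called in WT, and 2, 8 and 2 in KO, with a median of -1.20 in WT. Plcb3 rose by 2.68 ± 0.13, from 42.1 to 265 CPM, and Plcd3 by 1.95 ± 0.15. Plce1 fell by 2.39 and Plcd1 by 2.03. Plcb4, the beta form known from Purkinje cells, had a value of 0.81 ± 0.37 and an adjusted p of 0.0596 by edgeR in WT; it falls outside the rule for named genes and was chosen after its values were seen.

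Of the 16 receptor partners 14 were tested, and 3 were higher, 5 lower and 6 not called in WT, and 3, 6 and 5 in KO. Ahcyl1, which binds the receptor in place of IP3, rose by 0.82 ± 0.13. Itpripl2 fell by 2.80 and Itpripl1 by 2.48, from 2.98 and 1.51 CPM in input WT.

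The 20 phosphatases and genes of inositol supply were 11 higher, 6 lower and 3 not called in both genotypes. Inpp5e, a phosphatase of lipid phosphoinositides in the cilium, rose by 2.09 ± 0.27 and Inpp4a, a 4-phosphatase of such lipids, by 1.84 ± 0.13. Inpp5d, a 5-phosphatase of blood cells and microglia, fell by 3.19 and the 4-phosphatase Inpp4b by 2.31. The 8 microglia markers summed to 30.6 to 51.8 CPM in input WT and 15.2 to 19.6 CPM in TRAP WT, and their part in Inpp5d was not tested. Among the 8 kinases that make higher inositol phosphates, changes were small, with 3 higher and 5 not called in WT. Ppip5k1 rose by 0.60 ± 0.14 and Ip6k2 by 0.52 ± 0.09. In KO 3 were higher, 1 lower and 4 not called.

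The calcium store and its refilling had 9 of 14 genes higher, 4 lower and 1 not called in WT, with a median of 1.04. In KO there were 8, 3 and 3, with a median of 0.61. Atp2a3, a calcium pump of the store, rose by 3.27 ± 0.25. The ryanodine receptors are the other release channels of the store. Of their genes Ryr2, at -2.26 ± 0.21, and Ryr3, at -2.17 ± 0.31, had the 2 lowest called values of the list. Ryr1, also in the list, had a mean of 25.0 CPM in TRAP WT and 28.6 CPM in TRAP KO. Its TRAP against input value is not reported here.

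**Figure D5:**
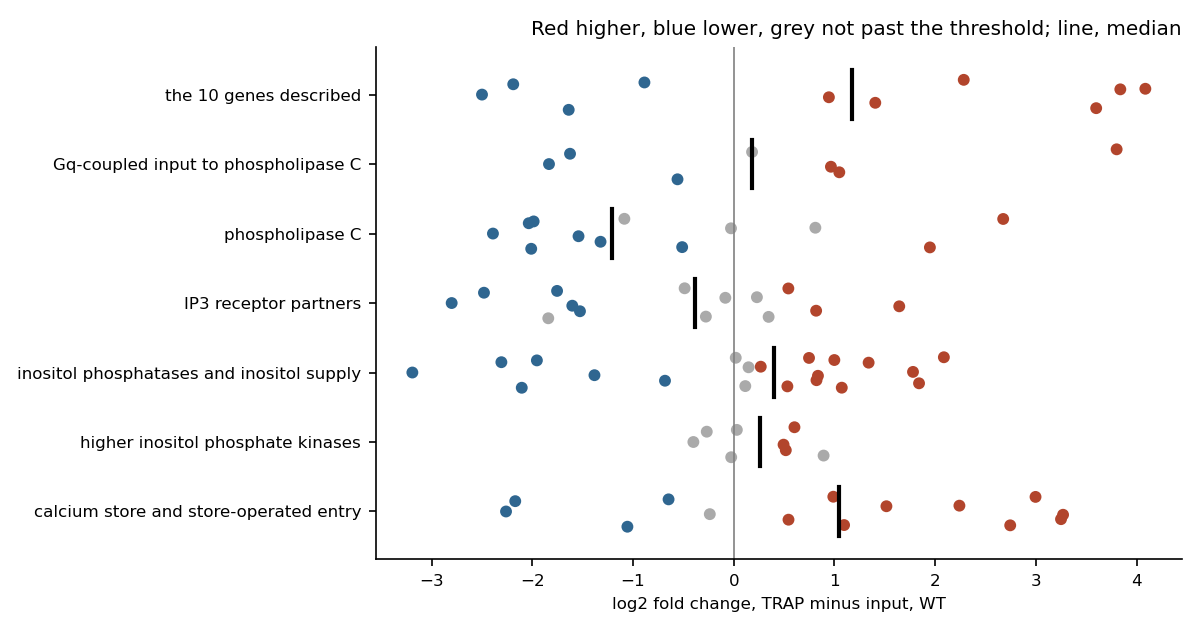
Log2 fold change of TRAP minus input in WT for the 10 genes and the 6 lists around them, 1 point per gene, red where called higher, blue where called lower and grey where not called, with the median of each list as a black line. The medians run from -1.20 for phospholipase C to 1.18 for the 10 genes.

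The genes whose levels were most like those of Itpr1, Car8 and Itpkb over the 14 libraries were found by Pearson's r of log2(CPM + 1) among 5946 genes of a mean of at least 5 on that scale. The difference between TRAP and input makes up most of such an r, so the values describe likeness and carry no test. For Car8 they were Ufsp2 (0.9993), Itpka (0.9992), Srxn1 (0.9991) and Inpp5a (0.9990), so that 2 of the 4 belong to the 10 genes described here. For Itpr1 they were Kcnma1 (0.9927), a calcium-activated potassium channel gene, Atrnl1 (0.9919), Ptprm (0.9919) and Dpy19l3 (0.9918). For Itpkb they were Fam13a (0.9926), Rims1 (0.9888), Cacna1e (0.9881) and Sptb (0.9868).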

How the data were processed

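RNA was counted in 14 libraries of mouse cerebellum (4 groups of TRAP or input, Astn2 WT or KO). The deposited values are whole-number counts per Entrez gene, per the file headers and values. The submitters' processing notes name Salmon 0.8.2 and mm10, without saying how the counts were made, so they may be rounded estimates. Annotation and strand setting are not given in the sources used here. Symbols came from RefSeq (GRCm38.p6) for 24045 of 24100 genes, and transcript lengths from GENCODE M21.

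The main test was edgeR 4.0.16 (R 4.3.3), quasi-likelihood, two-sided, with genes kept by filterByExpr, TMM factors and an adjusted p (Benjamini-Hochberg) under 0.05 as threshold. Genotype tests used the 7 TRAP or the 7 input libraries, with sex as covariate. TRAP against input and the interaction were tested in 14 libraries with group means and sex. SE is the absolute log2 fold change over the square root of F. Alternatives were DESeq2 1.42.0 (Wald test, size factors), library totals, no low-count filter, no sex term, a replicate block, each library left out and, chosen after seeing the data, length offsets (loess, span 0.3) and quality weights (limma 3.58.1). A count of 3 corresponds to 0.0444 to 0.204 TMM-scaled CPM over the libraries, which covers counting error only. The scripts were tested on simulated data.

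The 10 genes and all lists were chosen with earlier results of these data known. Genes named are the 10, from each list the 2 highest and 2 lowest called log2 fold changes of TRAP against input in WT, any listed gene called for genotype, and for Itpr1, Car8 and Itpkb the 4 most alike genes. A few genes that this rule would name are not reported here.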

Additional observations from a re-analysis of the deposited data

Results flagged for a closer look

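In the input WT group the lowest library for Itpr3 was at 7.54 CPM, against 9.12 to 9.46 CPM in the other libraries. On the log2(CPM + 1) scale it was far from the rest, with a gap to the nearest library of 0.836 of the group's range. On plain CPM that share is smaller and falls short of the cut-off for a flag. On the log2 scale this group was 1 flagged of 20 groups of 4 libraries examined, and chance alone gives about 1 in 20.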

How the results depend on the processing

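TRAP against input kept its direction for all 10 genes in both genotypes under every alternative run, and 3 calls were lost, all with library totals: Inpp1 in WT (0.13), Stim1 in WT (0.58) and Stim1 in KO (0.29). No genotype or interaction alternative called any of the 10 genes, apart from Itpr3 in input with DESeq2's Wald test (-0.77, 1 gene called against 0). The number of all genes called for genotype in TRAP, 1, became 3 with DESeq2's Wald test, 4 with quality weights and 1 to 2 with a library left out. In input the 3 called became 5 with DESeq2's size factors, 23 without the low-count filter, 292 with DESeq2's Wald test, 8 with length offsets, 8 with quality weights and 1 to 158 with a library left out, the highest without the second KO library. The interaction had 0 called, and 1 with DESeq2's Wald test. The cause of these moves was not tested.

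Genotype and interaction values, none of them past the threshold, changed sign in places. For genotype in TRAP, library totals gave 0.0245 for Itpr3, 0.0049 for Car8 and 0.0186 for Itpka, the fit without sex gave 0.0851 for Itpr3, and quality weights 0.21 for Itpr1. With a library left out the values ran from -0.43 to 0.33 for Itpr1, -0.53 to 0.24 for Itpr3, -0.147 to 0.0266 for Car8, -0.127 to 0.0474 for Itpka, -0.0123 to 0.174 for Inpp1 and -0.70 to 0.14 for Stim1. For genotype in input, library totals gave -0.0002 for Inpp1, and leaving out a library gave -0.0143 to 0.146 for Inpp5a, -0.0013 to 0.0421 for Inpp1 and -0.0714 to 0.58 for Itpr1. For the interaction, quality weights gave 0.18 for Stim1, and leaving out a library gave -0.0324 to 0.14 for Inpp1, -0.67 to 0.12 for Itpr1 and -0.65 to 0.33 for Stim1. The cause was not tested.

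The main fit did not pair libraries by number, and whether same-numbered libraries pair was not tested. Between input and TRAP, deviations of same-numbered libraries correlated at 0.252, 0.239 and 0.0927 in WT and 0.212, 0.184 and -0.0591 in KO. Libraries of differing number correlated at -0.191 to 0.0419 in WT and -0.192 to 0.115 in KO. In WT every same-number value lay above that range. In KO 0.212 and 0.184 lay above it and -0.0591 lay within it. Between genotypes, same-numbered libraries correlated at 0.122, 0.154 and -0.0866 in input and -0.0236, -0.116 and -0.0656 in TRAP. With a replicate block 1 gene was called for genotype in TRAP, 1 in input, 0 for the interaction, and 11593 (WT) and 11442 (KO) for TRAP against input, with the same counts of the 10 genes called. Under the block Itpr3 was 0.40 for genotype in TRAP and Inpp1 was -0.0194 for the interaction.

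Precision is limited by the 3 or 4 libraries per group.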
